A study of Mus musculus with 27 samples.

Results

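The 9 genes described here act in plasma lipoprotein metabolism and were followed in mouse liver: the lipoprotein lipase regulators *Angptl4* and *Angptl8*, the lipases *Lpl*, *Lipc* and *Lipg*, the lipid loading protein *Mttp*, and the HDL genes *Pltp*, *Lcat* and *Scarb1*. They are 9 of the 23191 gene symbols in the deposited table. They were selected by name, from their levels over the 4 groups of these same mice and from textbook roles, so the levels below describe these livers. The adjusted p-values beside them place each gene among all genes tested and are not independent tests of a pattern.

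Liver mRNA was sequenced from 27 male mice on a C57BL/6J background. HGFAC-KO mice carry a CRISPR/Cas9 deletion over exons 1 and 2 of *Hgfac*, which encodes a secreted serine protease that activates hepatocyte growth factor, so the gene is altered in every tissue. Littermate controls lack the deletion. Mice were 8 weeks old when they were assigned to chow or to a diet rich in fat and sucrose (HF/HS), and livers were taken after 4 weeks. The chow groups held 7 controls and 6 HGFAC-KO mice, and the HF/HS groups 7 mice of each genotype. Liver triglyceride was assayed in mice of the same genotypes and diets that were fasted overnight and then refed, but the sources used here do not say whether the sequenced livers were collected in that state.

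Triglyceride leaves the liver in VLDL, which MTTP loads with lipid as apolipoprotein B is made. Lipoprotein lipase (LPL), bound to the capillary wall of muscle and fat, then releases fatty acids from VLDL and chylomicrons. ANGPTL4 inactivates LPL mainly in fasted fat and is a PPAR target, while ANGPTL8 rises with feeding and helps to inhibit LPL in muscle. Hepatic lipase (LIPC), endothelial lipase (LIPG), PLTP, LCAT and the HDL receptor SCARB1 remodel remnants and HDL.

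*Hgfac* itself was lower in every HGFAC-KO mouse than in every control on the same diet. On chow its normalized level, in CPM (counts scaled to a common library size by TMM), was between 182.9 and 219.0 in controls, while the HGFAC-KO livers held 65.4 to 84.5 CPM. On HF/HS the same ranges were 247.2 to 295.7 CPM and 81.8 to 100.7 CPM, so that *Hgfac* reads remained in HGFAC-KO livers (fitted ratio 0.375 on chow and 0.339 on HF/HS). The libraries held 36056177 to 57298657 counts (median 47239271). The libraries of 2 mice stood further from their group's median profile than the other 25 (median absolute log2 deviation over genes 0.197 for HGFAC-KO chow mouse 1 and 0.166 for control HF/HS mouse 7, against at most 0.142), and values without them are given where they alter a result. The hepatocyte markers *Alb*, *Ttr*, *Apoh*, *Ahsg*, *Tat* and *Serpinc1* summed to 67361 to 106242 CPM, while 5 adipocyte markers summed to 0.13 to 2.35 CPM, with *Lep* under 0.1 CPM in every group. In bulk liver, fewer cells of a type and less RNA per cell cannot be told apart.

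Levels between genes were compared per kilobase of merged exon. That length counts the exons of every annotated transcript (10478 bases for *Lpl*, 8500 for *Scarb1* and 2150 for *Lipc*), and the order depends on it. By CPM *Lipg* was lowest, and *Scarb1* was above *Lipc* in every group. *Lcat* had the highest level, with a mean over the 27 mice of 305 ± 23.7 CPM per kb (SD), followed by *Angptl8* at 174 ± 77.7 and *Mttp* at 76.7 ± 6.13. *Lipc* reached 52.5 ± 8.98, *Scarb1* 20.4 ± 2.56, *Pltp* 13.4 ± 3.08 and *Angptl4* 10.6 ± 5.52 CPM per kb. *Lipg*, at 2.88 ± 0.87, and *Lpl*, at 2.42 ± 0.41, were lowest. Over all mice *Pltp* and *Angptl4* differed by less than the sum of their SDs, as did *Lipg* and *Lpl*. Within groups more neighbours came that close, among them *Angptl8* (91.4 ± 32.2) and *Mttp* (80.9 ± 5.02) in HF/HS controls, and *Lcat* (308 ± 27.3) and *Angptl8* (245 ± 43.5) in HGFAC-KO mice on chow. In HF/HS controls the mean of *Angptl4* (15.97 ± 6.15) was above that of *Pltp* (13.3 ± 2.93), and in HGFAC-KO mice on HF/HS that of *Lpl* (2.60 ± 0.21) was above that of *Lipg* (2.39 ± 0.67), in both cases by less than the SDs.

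Mice of 1 group differed most in both *Angptl* genes. The within-group SD of log2 CPM was 0.59 for *Angptl4* and 0.53 for *Angptl8*, larger than for 95.4% and 92.8% of 13932 genes. *Mttp* and *Lcat*, at 0.11 each, varied less than most genes (20.5% and 17.7% of genes had a smaller SD). A difference of a given size is therefore easier to detect in *Mttp* or *Lcat* than in the *Angptl* genes.

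Within each diet, the genotype comparison asks how loss of HGFAC alters these genes. Genes were compared with the quasi-likelihood test of edgeR, adjusted by Benjamini-Hochberg over all genes, at an adjusted p threshold of 0.05. On chow none of the 9 genes passed, against 0.00737% of the 13571 genes tested (*Hgfac* alone). None of the 9 had an unadjusted p under 0.05 either, and DESeq2 and limma voom called none. On HF/HS again none passed, against 0.0148% of 13544 genes (*Hgfac*, and the choline kinase gene *Chka*, named after its value was seen), and 2 of the 9, *Angptl8* and *Angptl4*, had an unadjusted p under 0.05, against 9.64% of all genes. DESeq2 called *Angptl8* there and limma voom called none.

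The diet comparison within a genotype asks how the liver responds to HF/HS. In controls 3 of the 9 genes rose (*Angptl4*, *Lipc* and *Scarb1*), against 4.93% of 13525 genes called higher, and none fell, against 5.6% called lower. In all, 6 of the 9 had an unadjusted p under 0.05, against 25.4% of all genes. The calls in controls changed with the test: limma voom called only *Lipc* and *Scarb1*, and DESeq2 called these and *Angptl4* higher and *Angptl8* lower. In HGFAC-KO mice none of the 9 was called, against 3.17% of 13613 genes called higher and 2.73% called lower, and 1 (*Angptl8*) had an unadjusted p under 0.05, against 22.4% of all genes. DESeq2 and limma voom called none in HGFAC-KO mice. The control HF/HS mice serve in both the diet comparison in controls and the genotype comparison on HF/HS, and a high or low value among them moves both, in opposite directions.

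**Figure D1:**
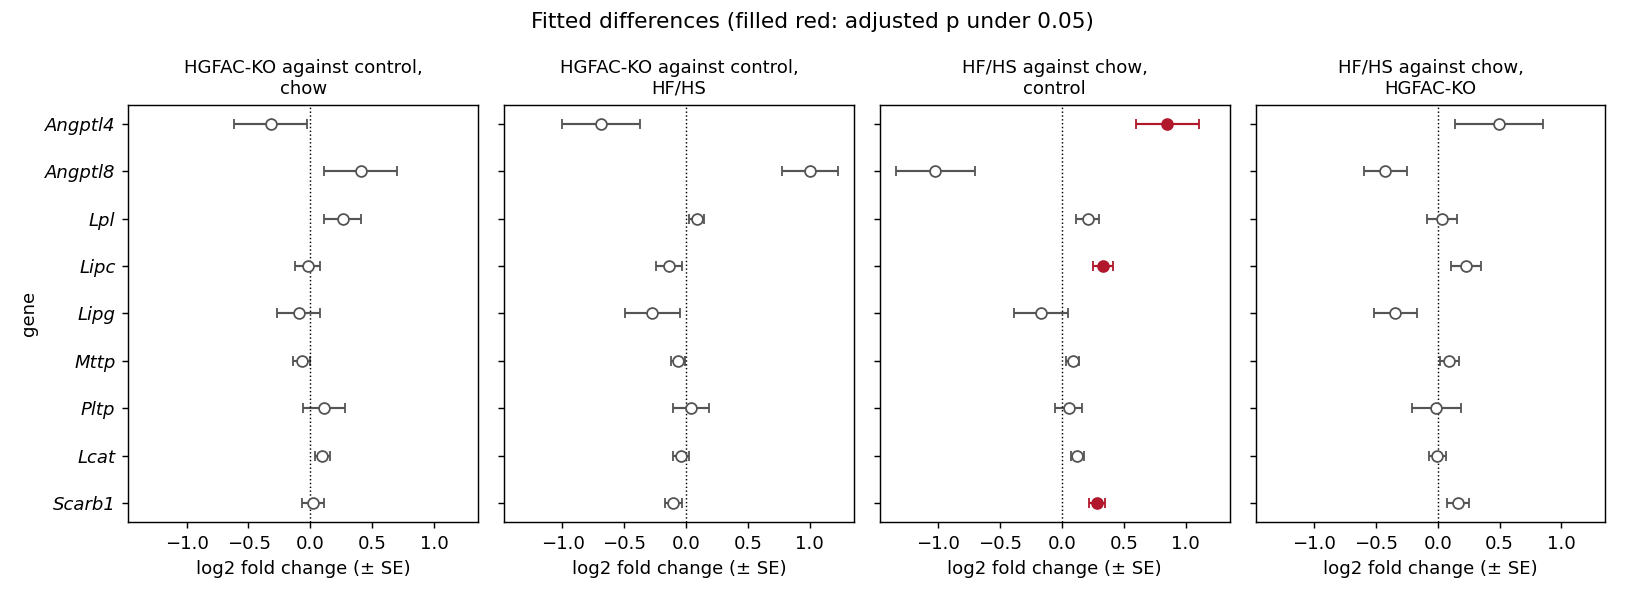
Fitted log2 fold change (x axis, bars ± SE) of the 9 genes (y axis) in the 4 comparisons, with genes at an adjusted p under 0.05 filled in red. *Angptl8* (1.00 on HF/HS by genotype and -1.03 by diet in controls) and *Angptl4* (-0.69 and 0.85) lie farthest from 0, and only *Angptl4*, *Lipc* and *Scarb1* in the diet comparison of controls are filled.

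Whether the genotype effect itself differed between the diets was asked with an interaction term in a fit of the 27 mice. No gene passed (0% of 13932, with 506 genes at an unadjusted p under 0.05, and 0 calls with DESeq2 or limma voom), and none of the 9 had an unadjusted p under 0.05. The estimate farthest from 0 was that of *Angptl8*, at 0.60 ± 0.39 (log2, SE), with an adjusted p of 0.984. A difference between diets in the genotype effect was thus not detectable for these genes.

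*Angptl8* (ENSMUSG00000047822) is on chromosome 9 of GRCm38 from 21835510 to 21837347, on the plus strand, with 4 exons. It lies inside *Dock6* on the opposite strand and shares no exon bases with it. Because the gene differed most between groups, the 250 bases before its RefSeq start (chr9:21835260-21835509, plus strand, GRCm38.p6) are given 5′ to 3′. The stretch was searched on both strands for the E-box CACGTG, the nuclear receptor half-site AGGTCA and the TATA box TATAAA, which are found in 6.02%, 14.0% and 12.4% of 32851 windows of this length and placement, and it holds none of them, so that no base is in capitals.
Angptl8: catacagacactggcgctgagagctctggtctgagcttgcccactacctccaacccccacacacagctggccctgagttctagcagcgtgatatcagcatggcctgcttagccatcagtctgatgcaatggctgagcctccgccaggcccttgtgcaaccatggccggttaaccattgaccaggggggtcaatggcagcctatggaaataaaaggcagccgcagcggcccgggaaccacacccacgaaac

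On HF/HS, *Angptl8* was 58.3, 53.2, 53.5, 130.4, 82.2, 80.9 and 94.9 CPM in controls 1 to 7. It was 206.3, 139.3, 213.6, 136.8, 88.3, 154.8 and 168.1 CPM in HGFAC-KO mice 1 to 7. In all, 6 of the 7 HGFAC-KO mice were above every control, and the groups overlapped only through HGFAC-KO mouse 5 and controls 4 and 7. The means were 79.1 ± 27.9 CPM (SD, n = 7) in controls and 158 ± 43.2 CPM (n = 7) in HGFAC-KO mice, a 2.00-fold ratio in the fit (log2 1.00 ± 0.23, SE). The difference ranked 22 of 13544 genes by p (unadjusted 5.64e-04) but did not pass after adjustment (edgeR's quasi-likelihood test, adjusted p = 0.331, from 0.0882 to 0.598 when single mice were left out). With DESeq2 the adjusted p was 0.00261, so the call rests on the test used. Without control mouse 7, whose profile stood apart, the log2 difference was 1.05. The summed level of the 6 hepatocyte markers had a median of 96053 CPM in HGFAC-KO mice and 72748 CPM in controls. As a set they moved little, with a median log2 difference of 0.06. None of the 6 was called, and 2 had an unadjusted p under 0.05 (edgeR), against 9.64% of all genes. Their part in the *Angptl8* difference was not tested.

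On chow, *Angptl8* split the controls. It was 228.1, 261.1, 183.1 and 199.5 CPM in controls 1, 2, 5 and 6 and 101.5, 73.3 and 76.2 CPM in controls 3, 4 and 7. The 6 HGFAC-KO mice were all between 173.2 and 270.0 CPM (median 203.8), above the 3 lower controls. The fitted difference, 0.41 ± 0.30, did not pass (edgeR's quasi-likelihood test, adjusted p = 0.827).

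By diet, control mice had a mean *Angptl8* of 160 ± 76.3 CPM on chow and 79.1 ± 27.9 CPM on HF/HS. All 7 HF/HS controls were below the chow median of 183.1 CPM and 3 were below every chow control. The log2 difference of -1.03 ± 0.32 had an adjusted p of 0.0579 with edgeR and so missed the threshold, while DESeq2 (adjusted p = 0.0162) and a fit of all 27 mice (0.0154) called it lower. With edgeR it was also called when chow control 4 (adjusted p = 0.0311), chow control 7 (0.0378) or HF/HS control 4 (0.0301) was left out. In HGFAC-KO mice the means were 212 ± 37.6 CPM (n = 6) on chow and 158 ± 43.2 CPM (n = 7) on HF/HS, and 5 of 7 HF/HS mice were below every chow mouse. The difference there was -0.43 ± 0.17 (edgeR's quasi-likelihood test, adjusted p = 0.163).

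*Angptl4* (ENSMUSG00000002289; chromosome 17, 33773750 to 33781830, minus strand, 7 exons) had its highest levels in controls on HF/HS. They held 80.7, 28.3, 82.7, 32.8, 52.3, 50.02 and 69.1 CPM in mice 1 to 7. On chow, controls 1 to 7 held 31.97, 21.9, 42.2, 37.7, 21.9, 23.3 and 39.6 CPM. Of the 7 HF/HS controls 5 were above every chow control, and the other 2, mice 2 and 4, were within the chow range. *Angptl4* rose by 0.85 ± 0.26 on the log2 scale (1.81-fold; edgeR's quasi-likelihood test, adjusted p = 0.0495), from a mean of 31.2 ± 8.84 to 56.6 ± 21.8 CPM. That call sits at the threshold. It was lost when any of 11 of the 14 mice was left out (adjusted p from 0.0571 to 0.0999), and was kept only without chow control 3, HF/HS control 2 or HF/HS control 4. It was also lost with limma voom (adjusted p = 0.0688), upper-quartile normalization (0.0509), no filter on low counts (0.0798) and a fit of all 27 mice (0.0830). Without HF/HS control 7 the log2 difference was 0.80 (adjusted p = 0.0862).

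In HGFAC-KO mice *Angptl4* was 14.3, 31.1, 22.6, 49.0, 18.0 and 14.7 CPM in mice 1 to 6 on chow and 29.5, 26.3, 18.8, 43.6, 71.9, 24.8 and 30.7 CPM in mice 1 to 7 on HF/HS. Only HGFAC-KO mouse 5 on HF/HS exceeded the highest chow mouse. The diet difference was 0.49 ± 0.36 (edgeR's quasi-likelihood test, adjusted p = 0.447), and it ran from 0.21 without that mouse to 0.80 without chow mouse 4. Compared with controls, HGFAC-KO means were 25.0 ± 13.3 against 31.2 ± 8.84 CPM on chow (log2 -0.32 ± 0.29, adjusted p = 0.846, and -0.63 without HGFAC-KO mouse 4, -0.21 without HGFAC-KO mouse 1) and 35.1 ± 17.9 against 56.6 ± 21.8 CPM on HF/HS (-0.69 ± 0.32, adjusted p = 0.518). On HF/HS 3 of 7 HGFAC-KO mice were below every control, and without HGFAC-KO mouse 5 the log2 difference was -0.96 (adjusted p = 0.165).

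**Figure D2:**
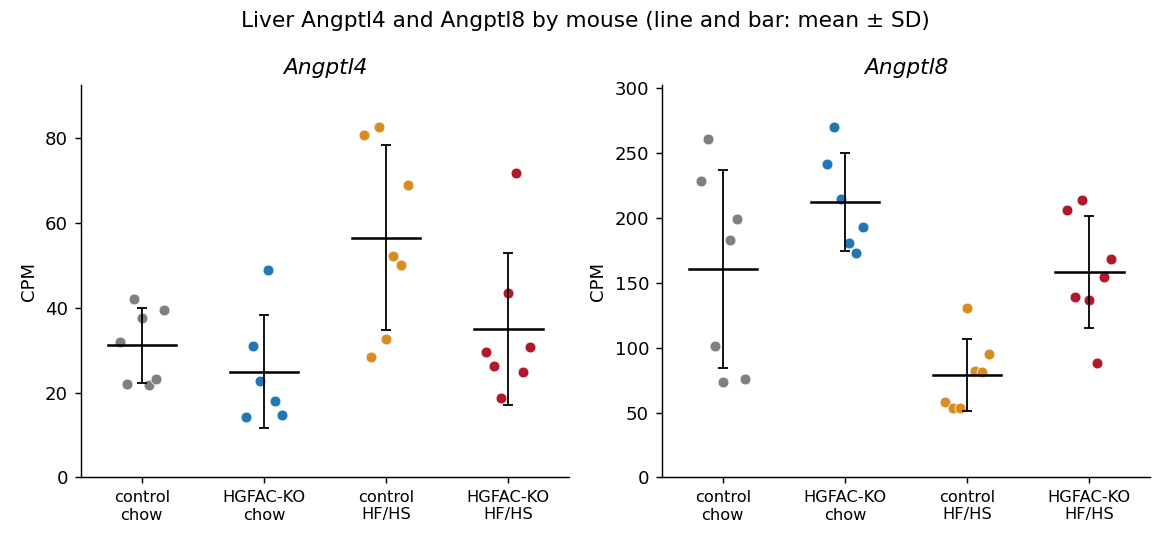
CPM (y axis, from 0) of *Angptl4* and *Angptl8* in each mouse (1 point each) of the 4 groups (x axis), with a line and bar for mean ± SD. On HF/HS the *Angptl8* mean was 158 CPM in HGFAC-KO mice and 79.1 CPM in controls while the *Angptl4* means were 35.1 and 56.6 CPM, and the chow controls fall into higher and lower *Angptl8* values.

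The *Angptl4* and *Angptl8* levels tended to run in opposite order over the 27 mice, though hardly so in HGFAC-KO mice on chow. The HGFAC-KO mouse on HF/HS with the highest *Angptl4* of its group (71.9 CPM, mouse 5) had its lowest *Angptl8* (88.3 CPM), and the one with the lowest *Angptl4* (18.8 CPM, mouse 3) had its highest *Angptl8* (213.6 CPM). As a description over the 27 mice, which fall into 4 groups and share normalization, Pearson's r of log2 CPM was -0.72, and -0.49 with group means removed. Of the 36 pairs among the 9 genes that value was the second most negative, after *Lpl* with *Mttp* at -0.60. Within groups r was -0.82 in chow controls, -0.05 in HGFAC-KO mice on chow, -0.30 in HF/HS controls and -0.86 in HGFAC-KO mice on HF/HS. In no group did exact permutation tests pass after adjustment over the 4 groups (smallest adjusted p 0.0921 for r and 0.333 for Spearman's rho, which was -0.61 in chow controls and -0.71 in HGFAC-KO mice on HF/HS). Leaving out the 2 mice farthest from the median *Angptl4* gave -0.76 in chow controls, -0.17 in HGFAC-KO mice on chow, -0.69 in HF/HS controls and -0.25 in HGFAC-KO mice on HF/HS. The value of the last group thus rests on its 2 mice, which are mice 3 and 5 named above. That of HF/HS controls was weaker with its 2 mice included.

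**Figure D3:**
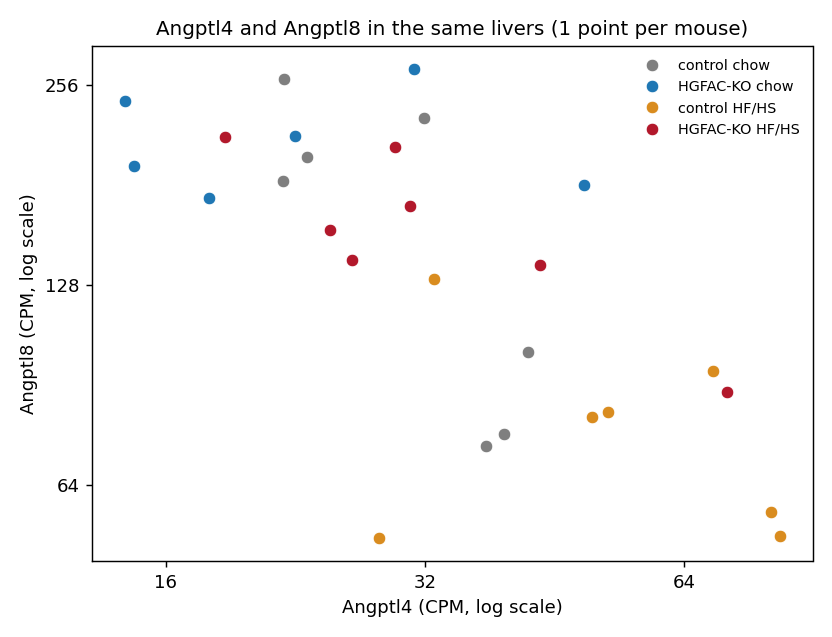
*Angptl8* (y axis, CPM, log scale) against *Angptl4* (x axis, CPM, log scale) in the same liver, 1 point per mouse, coloured by group. HF/HS controls reach 82.7 CPM of *Angptl4* at 53.5 CPM of *Angptl8*. Of the 13 HGFAC-KO mice of both diets, 12 lie above 130.4 CPM of *Angptl8*, the highest HF/HS control. Chow controls 1, 2, 5 and 6 (183.1 to 261.1 CPM) lie above it too.

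*Lipc* encodes hepatic lipase, which the liver secretes and which hydrolyses lipids of remnants and HDL. The gene (ENSMUSG00000032207) is on chromosome 9 from 70798128 to 70952226, minus strand, with 11 exons. RefSeq gives it 2 starts. The stretch before the inner start (chr9:70934809-70935058, minus strand, GRCm38.p6) is shown because it alone, of the 6 stretches available for 5 of the 9 genes, held any of the motifs searched. Capitals mark its 2 matches to AGGTCA, 1 on each strand, whose first bases lie 88 and 76 bases before the start. A match to these letters is a description and says nothing of binding.
Lipc: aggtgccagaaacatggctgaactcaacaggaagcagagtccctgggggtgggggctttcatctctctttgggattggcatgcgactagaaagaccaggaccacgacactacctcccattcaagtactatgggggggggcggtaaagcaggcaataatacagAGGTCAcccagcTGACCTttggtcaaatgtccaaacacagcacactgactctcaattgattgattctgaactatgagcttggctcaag

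In controls *Lipc* was 111.4, 110.4, 100.6, 87.4, 106.5, 105.4 and 94.5 CPM on chow and 107.0, 128.7, 154.0, 131.9, 145.5, 127.4 and 111.0 CPM on HF/HS. Of the 7 HF/HS mice 5 were above every chow mouse, and mice 1 and 7 were within the chow range. *Lipc* rose by 0.34 ± 0.08 on the log2 scale (1.26-fold; edgeR's quasi-likelihood test, adjusted p = 0.0141), and passed in all 9 alternatives to that fit (adjusted p from 0.00147 to 0.0399) and with any 1 of the 14 mice left out (0.00573 to 0.0315). In HGFAC-KO mice the means were 100 ± 18.5 CPM on chow and 117 ± 18.5 CPM on HF/HS (0.23 ± 0.12, adjusted p = 0.294), and 2 of 7 HF/HS mice were above every chow mouse. The genotype differences were -0.02 ± 0.10 on chow and -0.14 ± 0.10 on HF/HS, with adjusted p of 0.967 and 0.687.

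*Lpl* (ENSMUSG00000015568; chromosome 8, 68880491 to 68907448, plus strand, 13 merged exons) encodes lipoprotein lipase, whose main sources are muscle and fat. It was low in liver, with group means from 22.2 ± 4.21 CPM in chow controls to 27.3 ± 2.20 CPM in HGFAC-KO mice on HF/HS. Chow controls held 22.0, 20.4, 18.5, 31.0, 23.4, 20.6 and 19.5 CPM, and HF/HS controls 26.6, 24.5, 25.9, 26.97, 27.1, 22.8 and 26.1 CPM. All HF/HS controls were above the chow median and none was above chow control 4. The diet difference was 0.21 ± 0.09 (edgeR's quasi-likelihood test, adjusted p = 0.178), and without chow control 4 it was 0.31 (adjusted p = 0.00601), so that 1 library decides this call. Kupffer cells and macrophages also express *Lpl*, and the sum of 8 of their markers (*Clec4f*, *Vsig4*, *Timd4*, *Cd5l*, *Marco*, *Adgre1*, *Trem2* and *Gpnmb*) ran from 100.04 to 228.3 CPM in chow controls and from 130.9 to 269.2 CPM in HF/HS controls. In HGFAC-KO mice the same sum ran from 99.6 to 153.3 CPM on chow and from 129.0 to 225.5 CPM on HF/HS. Its medians on chow and HF/HS were 152.0 and 164.5 CPM in controls and 118.8 and 179.8 CPM in HGFAC-KO mice. The part of these cells in the *Lpl* levels was not tested. In HGFAC-KO mice *Lpl* ranged from 20.8 to 38.9 CPM on chow and from 24.8 to 30.1 CPM on HF/HS, with a difference of 0.04 ± 0.12 that was 0.18 without HGFAC-KO chow mouse 1, the highest of all. The genotype difference on chow was 0.26 ± 0.15, and 0.12 without that mouse.

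*Mttp* (ENSMUSG00000028158; chromosome 3, 138089854 to 138144968, minus strand) encodes the microsomal triglyceride transfer protein, the lipid loading step of VLDL assembly. Its group means lay between 448 ± 52.7 CPM in HGFAC-KO mice on chow and 502 ± 31.2 CPM in HF/HS controls. All 4 fitted differences were small, from -0.07 ± 0.07 (genotype on chow) to 0.09 ± 0.08 (diet in HGFAC-KO mice), with adjusted p from 0.310 to 0.854. The lowest mouse was HGFAC-KO chow mouse 1 with 347.9 CPM, against 441.9 CPM or more in the other 26, and without it the genotype difference on chow was -0.01. *Mttp* shares 457 exon bases (7.36%) with *Trmt10a* on the other strand.

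*Scarb1* encodes the scavenger receptor through which the liver takes up cholesteryl ester from HDL (ENSMUSG00000037936; chromosome 5, 125277087 to 125341094, minus strand, 16 merged exons). Controls held 143.8, 158.2, 165.8, 157.3, 180.5, 161.3 and 139.7 CPM on chow and 177.9, 168.9, 206.1, 184.0, 209.6, 208.1 and 194.1 CPM on HF/HS. Again 5 of the 7 HF/HS mice were above every chow mouse. *Scarb1* rose by 0.28 ± 0.06 (1.22-fold; edgeR's quasi-likelihood test, adjusted p = 0.0103), and like *Lipc* it passed in all 9 alternatives to that fit (6.43e-04 to 0.0174) and without any 1 of the 14 mice (0.00476 to 0.0244). In HGFAC-KO mice the means were 160 ± 22.7 and 179 ± 15.98 CPM (0.16 ± 0.09, adjusted p = 0.311), and without chow mouse 1, the lowest at 117.0 CPM, the difference was 0.08. The genotype differences were 0.02 ± 0.09 on chow and -0.10 ± 0.07 on HF/HS (adjusted p = 0.963 and 0.641).

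*Lcat* (ENSMUSG00000035237; chromosome 8, 105939551 to 105943382, minus strand, 6 exons) encodes the plasma enzyme that esterifies cholesterol on HDL. Its group means ran from 388 ± 20.3 CPM in chow controls to 424 ± 34.7 CPM in HF/HS controls, and every group overlapped every other. The diet difference in controls was 0.13 ± 0.06 (edgeR's quasi-likelihood test, unadjusted p = 0.0385, adjusted p = 0.170) and in HGFAC-KO mice -0.00 ± 0.07 (adjusted p = 0.976). The genotype differences were 0.10 ± 0.06 on chow and -0.04 ± 0.06 on HF/HS.

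*Pltp* (ENSMUSG00000017754; chromosome 2, 164839518 to 164857711, minus strand, 15 exons) encodes the phospholipid transfer protein, which moves phospholipid from triglyceride-rich particles to HDL. Its group means were close together, from 32.9 ± 3.55 CPM in chow controls to 35.3 ± 12.9 CPM in HGFAC-KO mice on chow. The fitted differences were between -0.01 ± 0.20 and 0.11 ± 0.17, with adjusted p from 0.809 to 0.979. HGFAC-KO chow mouse 1 held 60.7 CPM, against 25.3 to 34.3 CPM in the other 5 of its group, and without it the genotype difference on chow turned from 0.11 to -0.12 and the diet difference in HGFAC-KO mice from -0.01 to 0.21. *Pltp* shares 495 exon bases (19.3%) with *Ctsa* on the other strand, and the strand setting of the counting is not given in the sources used here.

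*Lipg* (ENSMUSG00000053846; chromosome 18, 74939322 to 74961263, minus strand, 10 exons) encodes endothelial lipase, which acts mainly on HDL phospholipid. It had the lowest CPM of the 9 genes, with group means of 15.2 ± 3.74 CPM in chow controls, 14.3 ± 3.31 CPM in HGFAC-KO mice on chow, and 13.6 ± 5.45 and 11.2 ± 3.16 CPM, in the same order, on HF/HS. On HF/HS 5 of 7 HGFAC-KO mice were below every HGFAC-KO mouse on chow, but the difference of -0.34 ± 0.18 did not pass (edgeR's quasi-likelihood test, adjusted p = 0.268). In controls the diet difference was -0.17 ± 0.22 (adjusted p = 0.687) and was -0.38 without HF/HS control 4, which held 25.0 CPM against at most 15.1 CPM in its group. Without that mouse the genotype difference on HF/HS was -0.06 in place of -0.28.

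**Figure D4:**
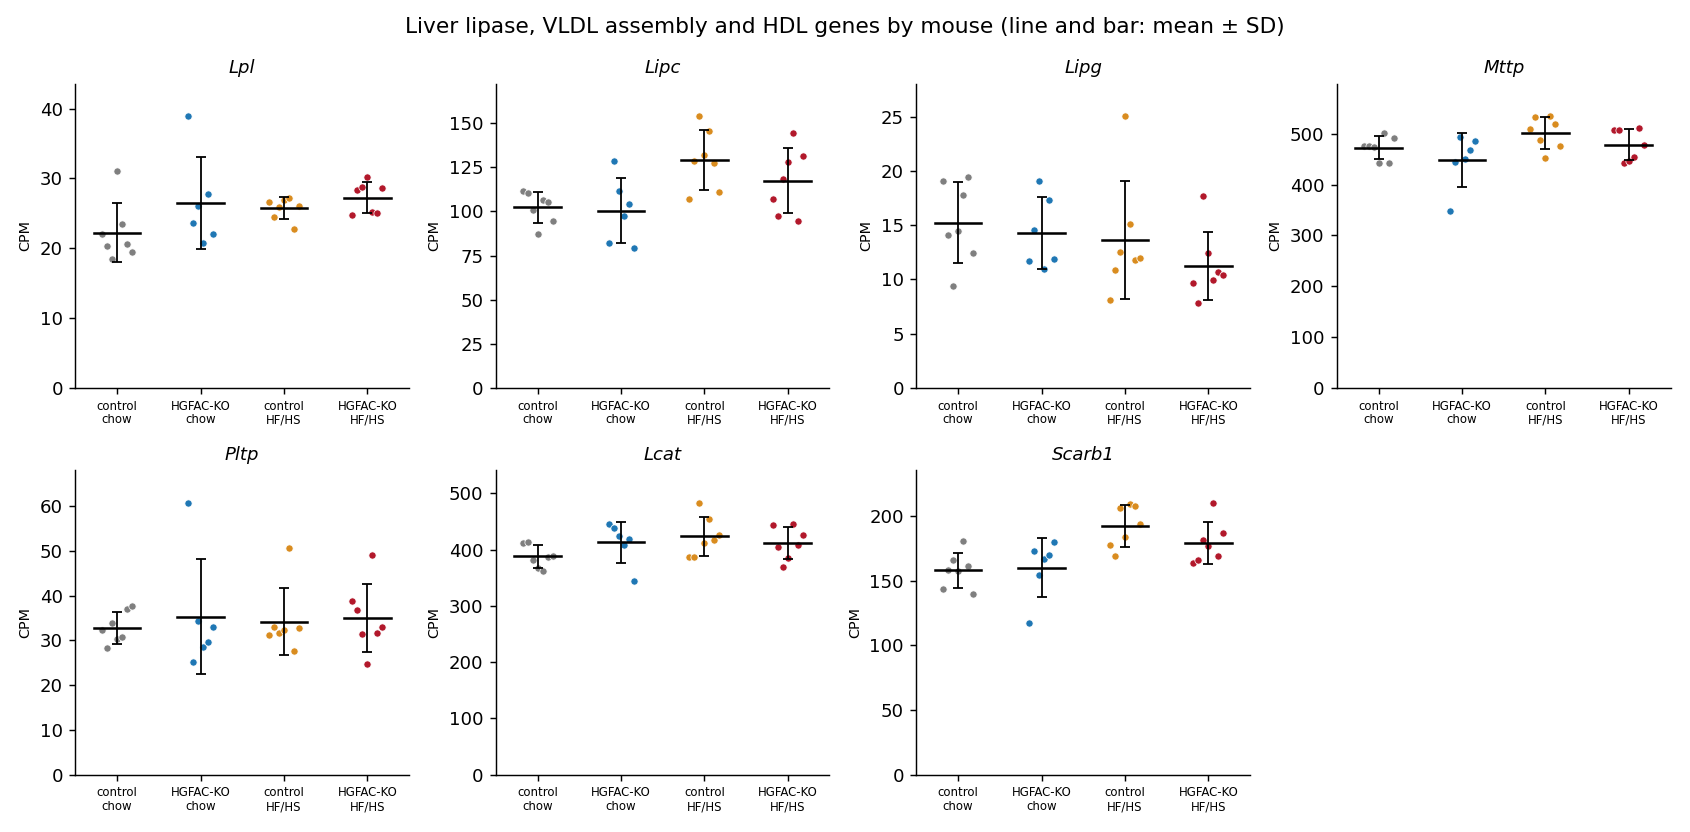
CPM (y axes, from 0) of the other 7 genes in each mouse (1 point each) of the 4 groups (x axis), with a line and bar for mean ± SD. *Lipc* and *Scarb1* are higher in HF/HS controls (means 129 and 193 CPM) than in chow controls (102 and 158 CPM), and HGFAC-KO chow mouse 1 is the high point of *Lpl* and *Pltp* and the low point of *Mttp* and *Scarb1* in its group.

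The genes whose log2 CPM followed each of the 9 most closely over the 27 mice are given with Pearson's r as a description. *Angptl8* ran closest with *G0s2*, the inhibitor of adipose triglyceride lipase (r = 0.91, and 0.83 with group means removed), followed by *Zfp786* (0.84) and *Pinx1* (0.83). *Angptl4* ran closest with *Lpin2*, a phosphatidate phosphatase (0.87, and 0.84 with group means removed), followed by *D230025D16Rik* (0.87) and *1600014C10Rik* (0.86). *Lipc* ran with *Nat8f1* (0.89), *Dpys* (0.88) and the fructose kinase gene *Khk* (0.86), and *Scarb1* with *Cadps2* (0.88), *Grb14* (0.87) and the fatty acid transporter gene *Slc27a2* (0.86). *Lipg* was closest to *Mid1ip1*, which helps acetyl-CoA carboxylase to polymerize (0.79), with *Mmab* (0.74) also among the 3 closest. *Mttp* was closest to *Uba1* (0.86), *Acad11* (0.85) and *Ddb1* (0.85), and *Pltp* to *Zmynd15* (0.86), *Slc25a4* (0.79) and *H2-Q1* (0.74). *Lcat* ran with the plasma protein genes *Proc* (0.84) and *Rbp4* (0.80) and with *Otulin* (0.79). *Lpl* had no gene above 0.69 (*Iqcg*, *Gapdhs* and *Magohb*, 0.69 each). Removing group means left these values between 0.58 (*Lpl* with *Gapdhs*) and 0.88 (*Lipc* with *Dpys*).

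Other genes of the same pathways were read from lists, with no test of a list. Of 12 other genes that act on LPL, 1 rose and none fell in controls on HF/HS, where 4.93% of all genes were called higher and 5.6% lower, so that the count is near that background. This was *Apoa5*, an LPL activator, with a mean of 588 ± 27.6 CPM on chow and 990 ± 201 CPM on HF/HS (log2 0.75 ± 0.11; edgeR's quasi-likelihood test, adjusted p = 3.48e-04). None of the 12 was called in the other comparisons. Their median log2 difference by diet in controls was 0.07, against 0.00 over all genes.

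Of 15 other genes of VLDL assembly and export, 1 rose and 2 fell in controls on HF/HS, against 4.93% and 5.6% of all genes. *Cideb*, which acts in VLDL lipidation, rose by 0.23 ± 0.06, and *Tm6sf2*, also needed for VLDL lipidation, fell by 0.57 ± 0.12 as did the export receptor gene *Mia3*, by 0.29 ± 0.07 (adjusted p = 0.0301, 0.00719 and 0.0119, edgeR). None was called in HGFAC-KO mice or by genotype, with 4 of the 15 at an unadjusted p under 0.05 in HGFAC-KO mice, against 22.4% of all genes. The median of the list was -0.06 in controls, against 0.00 over all genes.

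Of 11 lipoprotein receptors and their regulators, 1 rose and 4 fell in controls on HF/HS, against 4.93% and 5.6% of all genes, with a list median of -0.29 against 0.00 over all genes. The remnant receptor gene *Sdc1* fell by 0.29 ± 0.07, while *Mylip*, which encodes a ubiquitin ligase that marks lipoprotein receptors for degradation, rose by 0.47 ± 0.13 (adjusted p = 0.0213 and 0.0238, edgeR). In HGFAC-KO mice 1 of the 11 fell, against 2.73% of all genes, namely *Sdc1*, by 0.36 ± 0.10 (adjusted p = 0.0388). Of 11 other genes of HDL and sterol efflux, 2 rose and none fell in controls, against 4.93% and 5.6% of all genes, with a median of 0.12. *Apoa1*, the main HDL apolipoprotein, rose by 0.39 ± 0.05 and *Apof*, an inhibitor of cholesteryl ester transfer, by 0.35 ± 0.06 (adjusted p = 2.92e-04 and 0.00136, edgeR). In HGFAC-KO mice *Apof* (0.25 ± 0.07) and the efflux transporter gene *Abcg1* (0.49 ± 0.13) rose (adjusted p = 0.0345 and 0.0356), 2 of 11 against 3.17% of all genes. No gene of these lists was called by genotype.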

How the data were processed

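The authors captured liver mRNA, made stranded libraries, and sequenced them from both ends. HISAT2 placed the reads on GRCm38, and featureCounts 1.6.3 (submitters' processing notes) gave the counts for each gene, which the authors deposited in 1 table for the 27 mice, as whole numbers without normalization, and neither the strand setting of the counting nor the treatment of reads shared between genes is given in the sources used here. Of 27179 rows, 3886 name no gene. These rows took 4.13% to 12.1% of each library's counts and were left out of every sum and test. The other rows hold 23191 symbols, of which 89 on several rows were summed.

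The test was that of edgeR 4.0.16 in R 4.3.3 (TMM scaling, filterByExpr with minimum count 10 and minimum total 15, robust quasi-likelihood fit, Benjamini-Hochberg adjustment over all genes tested, threshold 0.05). Each comparison used only the mice of its 2 groups, and the interaction used all 27. CPM are on 1 TMM scale of 27 mice, and correlations used log2 CPM with a prior count of 2. Alternatives were DESeq2 1.42.0 with and without independent filtering, voom of limma 3.58.1, RLE and upper-quartile scaling, no filter, at least 10 counts in every library, the replicate number as a block, a single fit for all groups, and each mouse left out in turn. The study's methods name a server and no test. The fit was tested on simulated counts with 200 changed genes.

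The members, lists and tests were chosen with earlier results of these data known. Named genes are the 9 members, *Hgfac*, the 3 genes most like each member over the 27 mice, and, of each list, at most the 3 called genes with the smallest p in a comparison. Results for some genes named by this rule are not reported here. Groups and mouse numbers come from the labels, which give each liver as a separate mouse. Replicate libraries all differed by more than sampling noise (chi-square per gene of 17.7 or more). In no comparison did all same-numbered mice deviate together (correlation over 0.1), and the mouse number was not used as a pairing. Differently numbered mice were not compared as a baseline, so these correlations cannot exclude a pairing. Coordinates are from the GENCODE annotation of GRCm38, and the stretches before gene starts from RefSeq (GRCm38.p6), which matched 5 of the 9 genes.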

Additional observations from a re-analysis of the deposited data

Results flagged for a closer look

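In 6 of 36 combinations of gene and group, 1 mouse lay far outside the others by Dixon's criterion, where chance alone would give about 1 in 20. *Lpl* was 31.0 CPM in chow control 4, against 18.5 to 23.4 CPM in the other chow controls. *Lipg* was 25.0 CPM in HF/HS control 4, against 8.08 to 15.1 CPM in the others. Of the HGFAC-KO mice on chow, mouse 1 was low for *Mttp* at 347.9 CPM (the others 445 to 494 CPM) and high for *Pltp* at 60.7 CPM (the others 25.3 to 34.3 CPM), and mouse 6 was low for *Lcat* at 343 CPM (the others 408 to 445 CPM). *Pltp* was 50.7 CPM in HF/HS control 5, against 27.6 to 33.0 CPM in the others.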

How the results depend on the processing

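*Lipc* and *Scarb1* rose in controls on HF/HS under every alternative run, and the *Angptl4* and *Angptl8* differences kept their direction in every comparison and alternative while their calls changed as given above. Counts of genes past the threshold depended on the test. By genotype on chow DESeq2 called 13 genes (10 without independent filtering) where edgeR called 1. On HF/HS it called 55 (55) against 2, a fit of all 27 mice called 1, and leaving out single mice gave 2 to 11 (11 without HGFAC-KO mouse 5, 5 without control mouse 7). For diet in HGFAC-KO mice DESeq2 called 1401 (1401) against edgeR's 431 higher and 371 lower, and leaving out single mice gave 467 (without chow mouse 2) to 950. With the replicate block the diet comparison in controls gave 774 calls against 667 higher and 757 lower without it. The labels give the mouse numbers no shared litter or batch, and no comparison had every same-numbered pair of mice correlated above 0.1 in their deviations. The share came nearest for diet in HGFAC-KO mice, with 4 of 6 pairs over 0.1 (-0.15 to 0.27, median 0.13) and 602 calls with the block. It was 3 of 7 by genotype on HF/HS (-0.25 to 0.29), 1 of 6 by genotype on chow and 0 of 7 for diet in controls.

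No called value changed sign. Among uncalled values near 0, *Scarb1* by genotype on chow was -0.0137 with the replicate block. *Pltp* by diet in HGFAC-KO mice was 0.0250 with voom and 0.0349 with the block, against -0.0111. The *Mttp* interaction, 0.00, was -0.00149 with DESeq2 (either filtering), -0.00145 with RLE and -0.00211 with at least 10 counts in every library. With single mice left out, the signs of these values also varied: by genotype on chow *Lipc* -0.102 to 0.0367, *Pltp* -0.12 to 0.19 and *Scarb1* -0.0132 to 0.0982, on HF/HS *Pltp* -0.0619 to 0.161, by diet in controls *Pltp* -0.0659 to 0.104, by diet in HGFAC-KO mice *Lpl* -0.0251 to 0.176, *Pltp* -0.12 to 0.21 and *Lcat* -0.0510 to 0.0199, and as interaction *Lipg* -0.323 to 0.0370, *Mttp* -0.0580 to 0.0345 and *Pltp* -0.17 to 0.16. The cause was not tested.

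At 36056177 counts or more per library, counting error is small for all 9 genes, and the spread between mice is the larger error.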

Other observations

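Lists of genes that act beside the 9, inside the liver cell, were read in the same comparisons with edgeR's quasi-likelihood test. In controls 4.93% of all genes were called higher on HF/HS and 5.6% lower, and in HGFAC-KO mice 3.17% and 2.73%. Of 10 intracellular lipases and their cofactors, 1 rose and 2 fell in controls on HF/HS (all genes 4.93% and 5.6%), with a median of -0.03. The monoglyceride lipase gene *Mgll* rose by 0.52 ± 0.08 on the log2 scale (SE), from 426 ± 43.1 to 612 ± 75.1 CPM (SD, n = 7 each), and *Lipe*, hormone-sensitive lipase, fell by 0.55 ± 0.08 and *Pnpla2*, adipose triglyceride lipase, by 0.36 ± 0.07 (adjusted p = 7.62e-04, 5.57e-04 and 0.00257). In HGFAC-KO mice 1 rose and 1 fell (all genes 3.17% and 2.73%): *Mgll* rose by 0.36 ± 0.08 and *Pnpla2* fell by 0.36 ± 0.09 (adjusted p = 0.0178 and 0.0377). *Mgll* frees fatty acid from monoglyceride, while *Lipe* and *Pnpla2* act on di- and triglyceride.

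Of 12 transcription factors of lipid metabolism, 3 rose and 2 fell in controls on HF/HS (all genes 4.93% and 5.6%), with *Ppara* higher by 0.42 ± 0.10, *Ppard* lower (-0.25 ± 0.06) and *Srebf2* lower (-0.42 ± 0.12; adjusted p = 0.0162, 0.0233 and 0.0360). None was called in HGFAC-KO mice (all genes 3.17% and 2.73%), where 2 of the 12 had an unadjusted p under 0.05, against 22.4% of all genes. Of 12 PPARA targets of fasting, 4 rose and 1 fell in controls (all genes 4.93% and 5.6%), among them *Cpt1a* (0.41 ± 0.06), which takes fatty acids into mitochondria, and *Vnn1* (0.66 ± 0.11), a pantetheinase (adjusted p = 7.02e-04 and 9.96e-04). In HGFAC-KO mice 1 of these 12 was called (all genes 3.17% and 2.73%), *Pdk4*, the pyruvate dehydrogenase kinase, which fell by 0.98 ± 0.24 (adjusted p = 0.0272). None of the 12 was called by genotype in either diet. Among HF/HS mice, 7 of the 12 had an unadjusted p under 0.05 by genotype, against 9.64% of all genes. Their median log2 difference was -0.16. Among chow mice it was 3 of the 12, against 5.98% of all genes, with a median of -0.097. The list as a whole was not tested. Of 12 ChREBP and SREBP1 targets, 2 rose in controls (all genes 4.93%), the pyruvate kinase gene *Pklr* (0.73 ± 0.12) and *Khk* (0.36 ± 0.10), and 1 in HGFAC-KO mice (all genes 3.17%), *Txnip* (0.39 ± 0.10; adjusted p = 0.00127, 0.0251 and 0.0347).

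Some markers of other liver cells were called by diet, where 3.17% of all genes were called higher and 2.73% lower in HGFAC-KO mice and 4.93% and 5.6% in controls. In HGFAC-KO mice 3 of 8 Kupffer cell and macrophage markers rose on HF/HS, *Clec4f* (0.65 ± 0.11), *Cd5l* (0.68 ± 0.14) and *Adgre1* (0.61 ± 0.15), with 1 of 6 sinusoidal endothelial markers, *Stab2* (0.42 ± 0.09; adjusted p = 0.00372, 0.0120, 0.0310 and 0.0124). No marker of either list was called in controls. The endothelial median was nearly the same there (0.34, against 0.35 in HGFAC-KO mice), with 4 of 6 at an unadjusted p under 0.05 in each genotype (all genes 25.4% and 22.4%). The Kupffer cell and macrophage median was 0.23 in controls and 0.58 in HGFAC-KO mice. Of 6 hepatocyte markers 1, *Tat*, fell in both genotypes, by 0.51 ± 0.15 in controls and 0.75 ± 0.16 in HGFAC-KO mice (adjusted p = 0.0480 and 0.0121), while the summed level of the 6 had medians of 74423 CPM on chow and 72748 CPM on HF/HS in controls and of 85068 and 96053 CPM in HGFAC-KO mice. Of 6 stellate cell markers in controls *Colec11* rose (0.26 ± 0.07) and *Lrat* fell (-0.60 ± 0.16; adjusted p = 0.0182 and 0.0273). No marker was called by genotype.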
